A study of Mus musculus with 18 samples.

Results

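The clustered protocadherins were 58 of the 57126 genes counted in the tumors. They were chosen by name alone, as the protein-coding genes of the alpha, beta and gamma clusters that stand side by side on chromosome 18 of the mouse, and no measured value entered the choice, although the set was picked with earlier results of these data known. RNA sequencing had been performed on 18 mouse mammary tumors to compare tumors carrying p53 missense mutations with tumors lacking p53. All tumors arose in female F1 mice, 50% BALB/c and 50% C57BL6/J, after Cre-recombinase carried by an adenovirus was injected into the mammary ducts. Recombination left the mutant allele over a null allele in the 7 MaP R172H/- tumors and the 5 MaP R245W/- tumors, and no Trp53 in the 6 MaP -/- tumors. The MaP -/- tumors came from 4 mice, because 2 of the mice gave a pair of tumors each (T1 and T2). Names of tumors follow the deposited labels. For mice JM779 and JM836 these name T1, whereas the sample list published with the data marks T2 as sequenced, and a figure legend there names YZ17 where the labels have YZ7, a conflict that is not settled here. Rosa26LSL-TdTomato/+ was carried in addition by YZ2, YZ6 and YZ10 among the MaP R172H/- tumors and by JM1233, JM1564 and RM0014 among the MaP R245W/- tumors. Recombination was limited to epithelial cells, so stroma and immune cells in every tumor kept wild-type Trp53. The age of the mice at collection was not among the labels.

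Clustered protocadherins are cell-surface adhesion molecules of the cadherin superfamily that bind identical molecules on a neighboring cell, and they are best known for giving neurons an individual surface identity. In the alpha and gamma clusters each member has a variable first exon with its own promoter, which is spliced to constant exons shared by the whole cluster. Neurons choose most of these promoters at random, with CTCF and cohesin bringing the chosen promoter to a distant enhancer, whereas the C-type members at the end of the alpha and gamma clusters are switched on in a more regular way. Beta members are single-exon genes with no constant part. Gamma members are also transcribed outside the nervous system, and silencing of protocadherin clusters by promoter methylation has been described in several carcinomas.

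On GRCm39 the 14 alpha members lay between positions 37063237 and 37320716 of chromosome 18, the 22 beta members between 37397991 and 37657532, and the 22 gamma members between 37794846 and 37975014. The alpha cluster held 12 ordinary members and the 2 C-type members Pcdhac1 and Pcdhac2. The gamma cluster held 12 A members, 7 B members and the C-type members Pcdhgc3, Pcdhgc4 and Pcdhgc5. A median of 53.4% of the exon bases of an alpha member (38.4% to 54.9%) and 45.6% of those of a gamma member (28.4% to 67.4%) were shared with other members. Counts of single alpha and gamma members are therefore estimates that divide shared reads, and their cluster sums are firmer than their single values. Beta members shared a median of 0.0% and at most 9.7%.

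Total counts per tumor were between 23113578 and 37365062 (median 27624186). The MaP R172H/- libraries were the shallowest, at 23113578 to 27930163 counts. They alone were sequenced on a HiSeq instrument with shorter reads, so instrument and genotype cannot be told apart. The study classed MaP R172H/- tumors as luminal B or HER2-enriched, and MaP R245W/- and MaP -/- tumors as triple-negative. Tumor subtype and the MaP R172H/- genotype therefore cannot be told apart either. Trp53, the targeted gene, was lowest, median and highest at 11.2, 47.1 and 48.3 CPM in MaP R172H/- tumors and 9.30, 12.2 and 20.8 CPM in MaP -/- tumors. It was 11.3, 27.3, 9.06, 27.6 and 59.1 CPM in JM1233, JM1564, RM0014, JM1126 and JM1133, the MaP R245W/- tumors. Against MaP -/- tumors its log2 fold change was 1.58 (SE 0.31, edgeR FDR 0.00794) in MaP R172H/- and 0.95 (SE 0.44, edgeR FDR 0.426) in MaP R245W/- tumors. The libraries labelled YZ11 and JM1233 thus lay within the MaP -/- range and that labelled RM0014 just below it, and gene counts do not show which allele was transcribed. Epcam, an epithelial surface marker, was 23.6 CPM in YZ7, 34.3 in JM1233 and 10.3 in JM779-T1, against 252 to 1220 CPM in the other 15 tumors, and Esrp1, an epithelial splicing regulator, was lowest in the same tumors at 6.59, 13.5 and 3.62 CPM. These libraries stand apart, and results that rest on them are given with and without them. Since the tumors were bulk tissue, fewer cells of a type and less RNA per cell cannot be told apart, and p-values measure only the spread between these tumors.

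**Figure D1:**
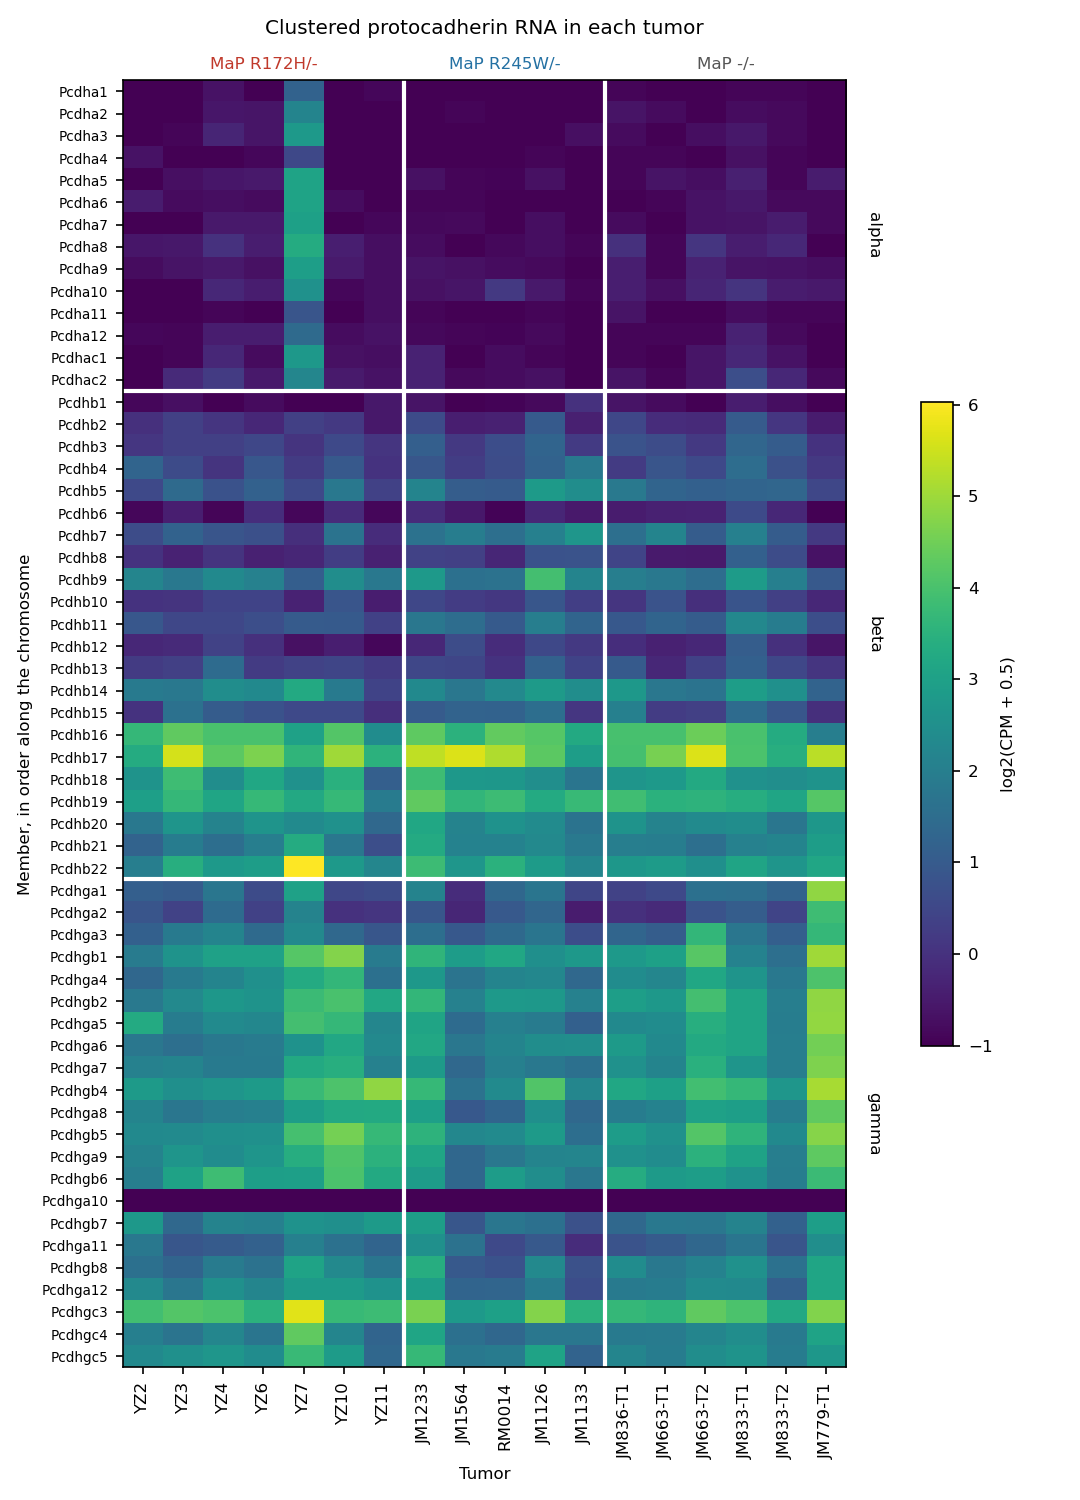
Level of each clustered protocadherin (rows, in order along the chromosome) in each of the 18 tumors (columns, by genotype), as log2(CPM + 0.5); white lines separate the clusters and the genotypes. The alpha rows are dark in every column but YZ7, the gamma A and B rows are brightest in JM779-T1, Pcdhb17 is bright in nearly every column, and Pcdhga10 has no counts anywhere.

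The clusters differed in how often they were detected at all. With 10 counts as the minimum, 20 of 22 gamma members and 15 of 22 beta members were detected in all 18 tumors, while no alpha member was. Of the 14 alpha members, 8 reached 10 counts in exactly 1 tumor. Pcdhga10, a gamma A member, had 0 counts in every tumor. The number of detected members of all clusters ranged from 36 in YZ11 to 52 in YZ7. Among the members scaled to exon length, Pcdhb17 had the highest mean level, at 5.48 ± 3.19 CPM per kb (SD, n = 18), followed by Pcdhgc3 at 3.03 ± 1.88 and Pcdhb16 at 2.65 ± 0.99. The spread between tumors is as large as the gaps between these means, so their order is not resolved. The highest alpha member, Pcdha8, ranked 42 of 58 with a mean of 0.135 ± 0.416 CPM per kb.

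Alpha RNA was close to absent from 17 tumors and abundant in 1. The 14 alpha members summed to 72.5 CPM (1716 counts) in YZ7, a MaP R172H/- tumor, and to at most 3.82 CPM elsewhere, in JM833-T1. The lowest, median and highest sums were 0.661, 1.02 and 72.5 CPM in MaP R172H/- tumors and 0.541, 1.79 and 3.82 CPM in MaP -/- tumors. The MaP R245W/- tumors JM1233, JM1564, RM0014, JM1126 and JM1133 held 1.24, 0.529, 0.9998, 0.861 and 0.191 CPM. Apart from YZ7 the genotypes overlapped, and YZ7 exceeded the next tumor 19.0-fold and the median of the other tumors 72.5-fold. The MaP R172H/- mean of 11.6 ± 26.9 CPM (SD, n = 7) fell to 1.49 ± 1.07 (n = 6) without YZ7.

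All 14 alpha members were highest in YZ7, with 22 counts for Pcdha4 to 227 for Pcdha8. Pcdha8, which led the cluster by level per length, made up 13.4% of the alpha sum of YZ7 per length, followed by Pcdha5 with 11.4%, and the leading 3 members together held 35.9%. Pcdha8 was 9.59 CPM in YZ7, against at most 0.553 CPM elsewhere (JM663-T2). Pcdha5 and Pcdha9, the next alpha members per length, were 7.94 and 7.18 CPM in YZ7 and no higher than 0.271 and 0.293 CPM in the others. The C-type members, which use the same constant exons, followed: Pcdhac1 was 6.17 CPM and Pcdhac2 4.18 CPM in YZ7. Pcdhac2 was also detected in JM833-T1, at 37 counts (1.11 CPM), the second highest value of that member. In the rest of the tumors the counts were too few to say which alpha promoter led. In RM0014, for example, Pcdha10 held 63.4% of the alpha sum per length, but that sum was 35 counts.

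Genes of other kinds inside the alpha interval rose with it in YZ7. Of 9 further annotated genes between the first and the last alpha exon, 8 reached 10 counts in some tumor, and all 8 were highest in YZ7. The pseudogene Gm36858, on the same strand, had 254 counts there and at most 17 elsewhere, and Gm10545, a long noncoding RNA on the opposite strand, had 91 counts and at most 9. YZ7 also stood apart in markers of Schwann and glial cells. Gfap, a glial filament, was 45.4 CPM there and at most 2.82 CPM elsewhere, and Mbp, a myelin basic protein that is also transcribed outside glia, was 222 CPM and at most 73.4 CPM. S100b and Sox10, which mammary epithelium also expresses, were highest in YZ7 too, at 14.9 CPM (at most 9.34 elsewhere) and 585 CPM (at most 479). Of the 10 neuronal markers 3 were highest in YZ7, Gap43 among them at 25.1 CPM, with Map2 at 235 CPM (at most 202 elsewhere) and Elavl4 at 0.592 CPM (at most 0.210), and Syp and Rbfox3 were second highest there. Snap25 and Nefm were at 0 in YZ7, as they were or nearly were in most tumors. Stmn2, another marker of this list, was lower in YZ7 than in any other tumor, at 0.0423 CPM. Its median over all tumors was 0.369 CPM and its highest level 132 CPM, in JM663-T2. The neuronal markers thus did not move together in YZ7. The list summed to 114 to 263 CPM in MaP R172H/-, 15.7 to 122 in MaP R245W/- and 54.5 to 168 CPM in MaP -/- tumors. The part of these cell types in the alpha signal was not tested.

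**Figure D2:**
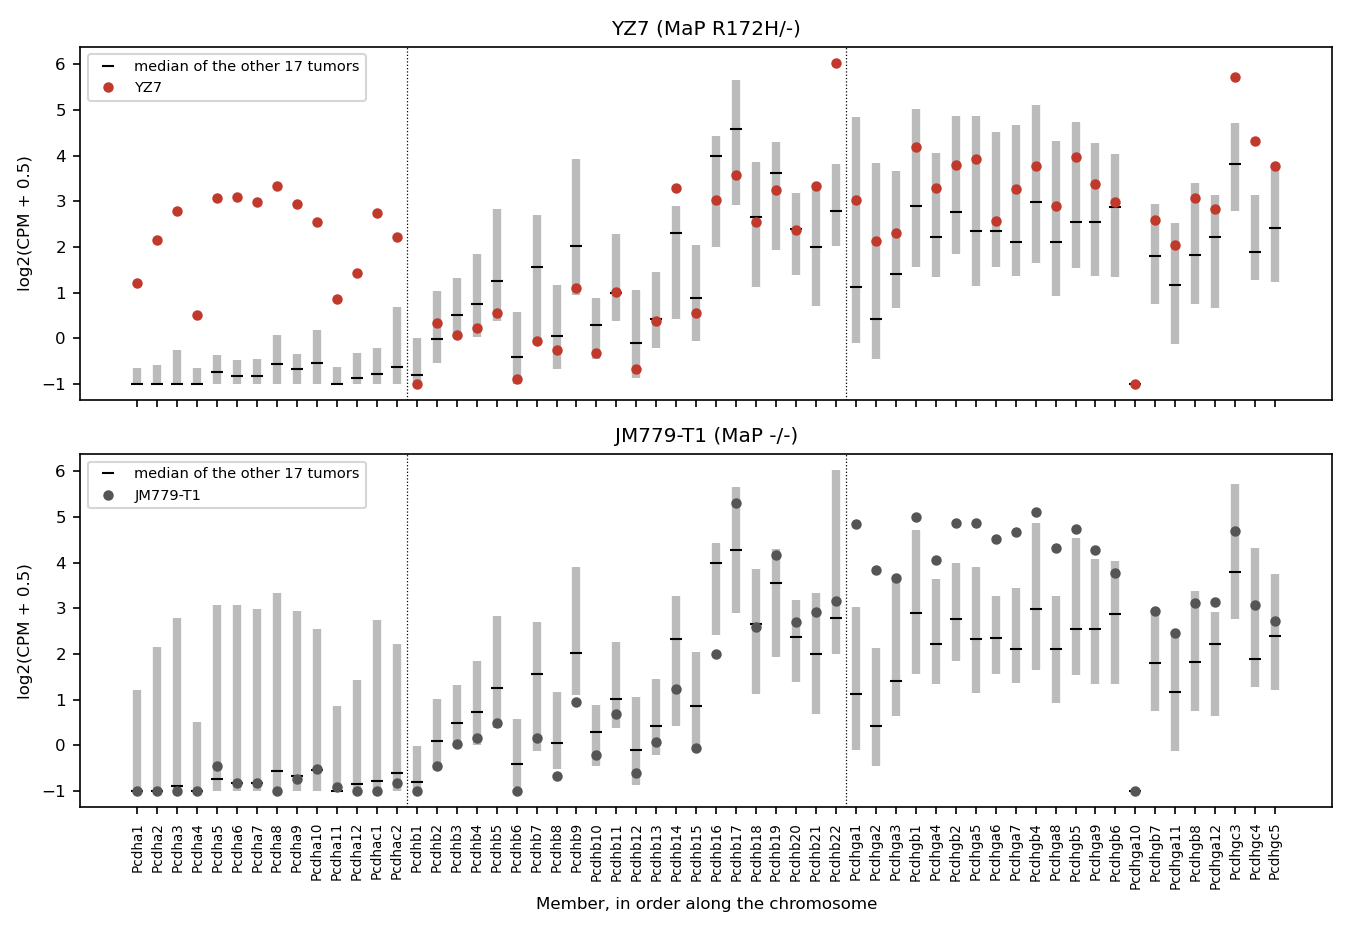
Each member in YZ7 (upper panel, red points) and JM779-T1 (lower panel, gray points) as log2(CPM + 0.5), with the range of the other 17 tumors as a gray bar and their median as a dash; members run along the chromosome and dotted lines separate alpha, beta and gamma. In YZ7 every alpha point stands above its bar, as do Pcdhb22, Pcdhgc3 and Pcdhgc4. In JM779-T1 the excess is largest at the first gamma members and is smaller at the last ones.

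Beta members were transcribed in every tumor. Their sum was lowest, median and highest at 37.3, 96.3 and 131 CPM in MaP R172H/- tumors and at 69.8, 94.2 and 118 CPM in MaP -/- tumors. It was 154, 112, 114, 115 and 72.1 CPM in JM1233, JM1564, RM0014, JM1126 and JM1133. The ranges overlapped between all genotypes, and the highest tumor, JM1233, exceeded the lowest, YZ11, 4.12-fold. Pcdhb17 led the cluster in 15 of 18 tumors. It reached 49.9 CPM in JM1564, where it was 45.2% of the beta sum per length, and 7.0 CPM in JM1133, where Pcdhb19 led instead. Pcdhb16, its neighbor in the cluster, was lowest, median and highest at 4.86, 15.5 and 19.3 CPM in MaP R172H/- and 3.49, 15.3 and 21.2 CPM in MaP -/- tumors, and 18.9, 10.9, 19.6, 17.4 and 9.14 CPM in the MaP R245W/- tumors in the order above. Pcdhb19 spanned 3.32 to 19.2 CPM over all tumors, with MaP -/- tumors at 11.95 ± 3.38 CPM (SD, n = 6).

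Single beta members departed from this pattern in single tumors. The last beta gene, Pcdhb22, had 1531 counts (64.7 CPM) in YZ7 and 80 to 463 counts elsewhere, and it made up 42.5% of the beta sum of YZ7 per length. In the same tumor Pcdhb21 and Pcdhb14 were 2.73-fold and 2.07-fold above the median of the other tumors, whereas 7 of the 21 beta members with a ratio were at or below 0.5 of it, among them Pcdhb6 and Pcdhb7 at 0.166 and 0.189. Pcdhb9 was highest in JM1126, at 457 counts. YZ11 was the lowest of the 18 tumors for 12 of 22 beta members, and 15 of the 21 with a ratio were at or below 0.5 of the median of the others, while its gamma members were at a median ratio of 0.931. The beta cluster also showed a contrast between stretches of neighboring genes. Across the 18 tumors the median Spearman correlation was 0.52 between pairs among Pcdhb1 to Pcdhb15 and 0.47 among Pcdhb16 to Pcdhb22, but 0.07 between the stretches, a split chosen after the values were seen and given as a description, in libraries that share depth differences and composition.

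Gamma RNA was present in every tumor and highest in JM779-T1, a MaP -/- tumor. The 22 gamma members summed to 388 CPM (11894 counts) there, against 246 CPM in YZ7, the next tumor, and 54.5 CPM in JM1564, the lowest. The lowest, median and highest sums were 88.5, 111 and 246 CPM in MaP R172H/- tumors and 67.6, 119 and 388 CPM in MaP -/- tumors. The MaP R245W/- tumors held 181, 54.5, 76.9, 120 and 58.7 CPM in JM1233, JM1564, RM0014, JM1126 and JM1133. The genotypes overlapped, with the MaP R245W/- median of 76.9 CPM lowest. Without JM779-T1 the MaP -/- mean of 162 ± 118 CPM (SD, n = 6) became 116 ± 45.6 (n = 5). Tumors from 1 mouse differed too: gamma RNA was 2.03-fold higher in JM663-T2 than in JM663-T1 and 1.98-fold higher in JM833-T1 than in JM833-T2, while beta RNA differed 1.31-fold and 1.47-fold.

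In JM779-T1 the excess depended on the position of the member. Pcdhga1, the first gamma member, was 16.97-fold above the median of the other tumors (872 counts against at most 181) and Pcdhga2, the next, 16.4-fold. Pcdhga5, Pcdhga6 and Pcdhga7 were 6.33-fold, 4.90-fold and 6.60-fold above it, and the last A member, Pcdhga12, 2.02-fold. The C-type members Pcdhgc3, Pcdhgc4 and Pcdhgc5 were at 1.89-fold, 2.49-fold and 1.27-fold, the last of these the lowest ratio in the cluster. The rank correlation between order along the chromosome and this ratio was -0.84 over the 21 gamma members with counts, which share constant exons and are not independent. In YZ7 the same correlation was -0.07, and the ratio was largest for Pcdhgc4, at 6.10. JM779-T1 was the highest tumor for 15 of 22 gamma members and the lowest for 6 of 22 beta members. Of the 8 other annotated genes inside the gamma interval, 6 reached 10 counts and 5 of these were highest in JM779-T1.

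Of the 7 B members, Pcdhgb6 was highest in YZ10, Pcdhgb8 in JM1233 and the rest in JM779-T1. Pcdhgb4 was highest in JM779-T1 at 34.1 CPM and next in YZ11 at 28.8 CPM, where it was 19.9% of the gamma sum per length. Pcdhgb1 was 31.8 CPM in JM779-T1, 26.0 in YZ10 and 2.44 to 17.9 CPM elsewhere, and Pcdhgb2 was 28.6 CPM in JM779-T1 and 3.09 to 15.5 CPM elsewhere. Pcdhga5 and Pcdhga9, with Pcdhga6 the highest A members per length, spanned 1.72 to 28.8 and 2.05 to 18.8 CPM. Pcdhgc3, the C-type member that leads gamma RNA in many non-neural tissues, led the cluster in 12 of 18 tumors and reached 21.3% of the gamma sum per length in JM1126. Its highest level was in YZ7, at 52.1 CPM, against 6.35 to 25.9 CPM in the others. The remaining C-type members were highest in YZ7 too, Pcdhgc4 at 19.5 CPM and Pcdhgc5 at 13.1 CPM, with JM1233 second in both at 8.34 and 12.5 CPM.

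**Figure D3:**
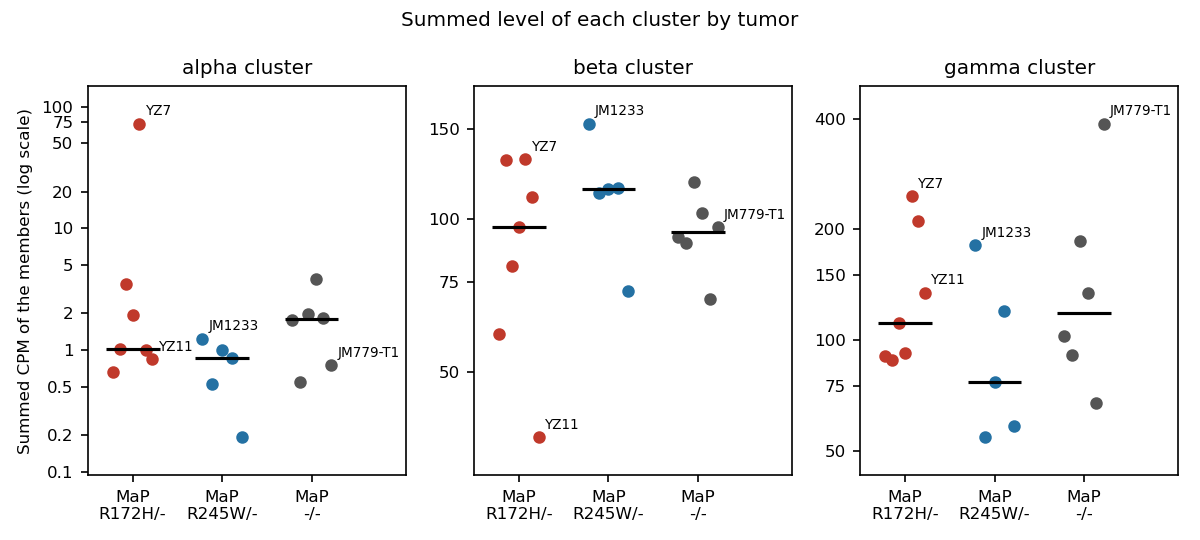
Summed CPM of the alpha, beta and gamma members in each tumor on a log scale; each point is a tumor, black bars mark the median of a genotype, and 4 tumors are labelled. The genotypes overlap in every panel, with YZ7 far above all tumors for alpha (72.5 CPM), JM779-T1 highest for gamma (388 CPM) and YZ11 lowest for beta (37.3 CPM).

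The balance between the clusters therefore shifted from tumor to tumor. By level per length, gamma members made up 29.4% (JM1564) to 78.8% (JM779-T1) of all clustered protocadherin RNA and beta members 21.0% (JM779-T1) to 70.3% (JM1564). Alpha members were 0.136% to 1.67% outside YZ7 and 16.5% in it. The median Spearman correlation over 18 tumors was 0.58 between gamma members, 0.48 between alpha and 0.34 between beta members, while it was 0.25 between alpha and gamma, -0.04 between beta and gamma and 0.04 between alpha and beta. Without YZ7 and JM779-T1 these medians were 0.48, 0.41, 0.33, 0.20, 0.12 and 0.09. They are given as a description. Those with alpha members rest largely on very low counts, since 8 of 14 alpha members reached 10 counts in exactly 1 tumor.

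The tumors with the highest alpha and gamma sums were among the 3 with the least epithelial RNA. The 11 epithelial markers summed to 380 to 9247 CPM in MaP R172H/- (lowest YZ7), 486 to 6213 in MaP R245W/- (lowest JM1233) and 169 to 2911 CPM in MaP -/- tumors (lowest JM779-T1), with no gene at 0 throughout. Vim, an intermediate filament of mesenchymal cells, was 1305 CPM in YZ7, 2319 in JM1233 and 4551 in JM779-T1, and 202 to 1731 CPM in the others. The 12 fibroblast and mesenchymal markers did not move together there. JM779-T1 was highest for 2 of them and lowest for 2, Col1a1 (368 CPM) and Col1a2 (298 CPM). YZ7 was highest for 1 and lowest for 1, Lum, and JM1233 highest for 1 and lowest for 0. Their sum was 7044, 24429 and 11717 CPM in YZ7, JM1233 and JM779-T1, within 3731 to 40881 CPM over all tumors. JM1233, with 181 CPM of gamma RNA, also had the highest level of all 5 skeletal muscle markers (985 CPM in sum). The 5 adipocyte markers summed to 3104 CPM in JM833-T1, the tumor with the second highest alpha sum. Whether these cell types contributed to the protocadherin sums was not tested.

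**Figure D4:**
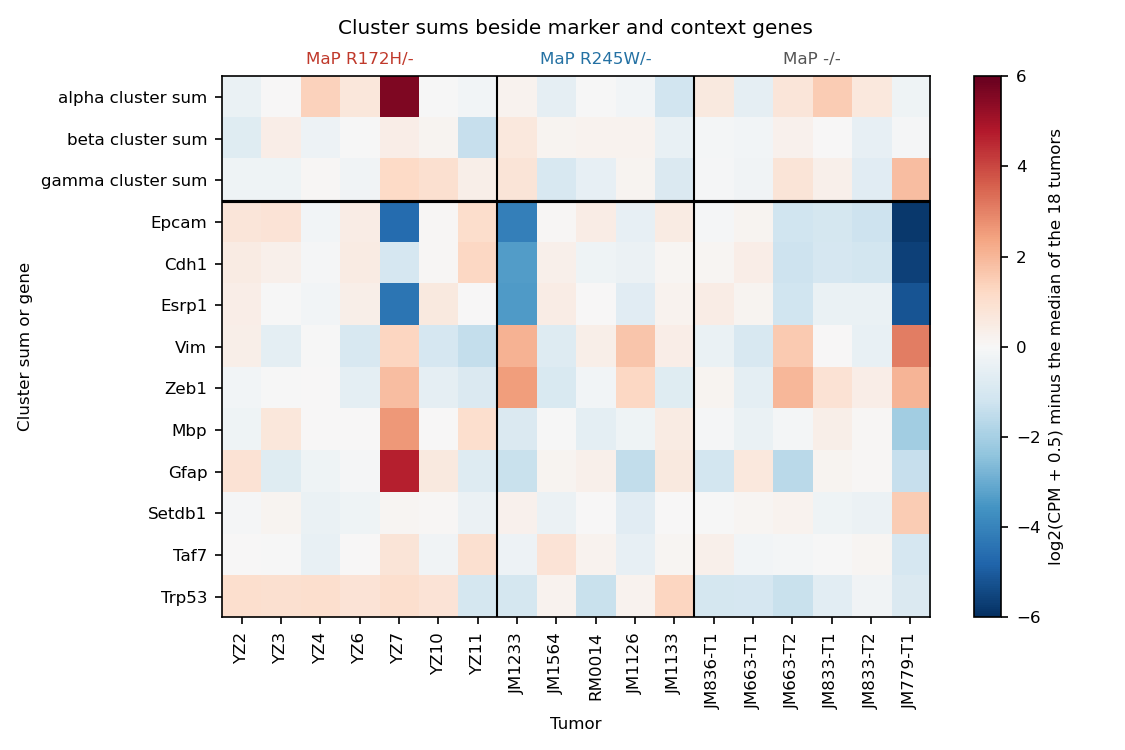
Sums of the 3 clusters (top rows) and selected marker and context genes (lower rows) in each tumor, as log2(CPM + 0.5) minus the median of the 18 tumors, red above and blue below it. Epcam, Cdh1 and Esrp1 are bluest in JM779-T1, JM1233 and, apart from Cdh1, YZ7, and the alpha sum, Mbp and Gfap are reddest in YZ7.

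No clustered protocadherin was called between MaP R172H/- and MaP -/- tumors. Of 41 members with enough counts for the test (20 beta, 21 gamma, no alpha), edgeR's quasi-likelihood test called 0 with an FDR under 0.05 plus a log2 fold change beyond 2 in either direction, where 1.37% of all genes were called (0.320% higher and 1.05% lower). At an FDR below 0.05 alone it was again 0, against 8.40% of all genes (3.67% higher and 4.73% lower). At an unadjusted p below 0.05 there were 3 members, all lower in MaP R172H/- tumors, against 24.7% of all genes (11.6% higher and 13.1% lower). DESeq2 called 0 of 53 and had 3 members at an unadjusted p below 0.05, with the count of YZ7 replaced as an outlier for 10 of the 12 alpha members it tested. With no filter on low counts, edgeR had 14 of 14 alpha members above 0, 10 of them at an unadjusted p below 0.05 and none called. All of these were highest in YZ7.

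The members nearest to a call were Pcdhb11, Pcdhga6 and Pcdhb3. Pcdhb11 was lowest, median and highest at 0.794, 1.11 and 1.52 CPM in MaP R172H/- and 1.11, 1.74 and 4.33 CPM in MaP -/- tumors, a log2 fold change of -0.99 (SE 0.34, edgeR FDR 0.090). The groups overlapped between 1.11 and 1.52 CPM, and DESeq2 gave Pcdhb11 an adjusted p of 0.0487. Pcdhga6 was 2.44, 3.30 and 8.71 CPM against 3.54, 7.39 and 22.5 CPM (log2 fold change -1.09, SE 0.44, edgeR FDR 0.142), and Pcdhb3 was lower by 0.70 on the log2 scale (SE 0.32, edgeR FDR 0.193). Fold changes were above 0 for 3 of 20 beta members (median -0.24) and 6 of 21 gamma members (median -0.28), beside 50.2% of all genes. Without JM779-T1 it was 17 of 21 gamma members (median 0.32), so the gamma direction turned on that tumor, while beta stayed at 3 of 20. Gamma was at 4 of 21 (median -0.49) without YZ7 and at 12 of 21 (median 0.035) without YZ7 and JM779-T1. The beta balance rested on JM833-T1, without which 9 of 20 beta members were above 0 (median -0.067). Pcdhgc3, Pcdhgc4 and Pcdhgc5 had log2 fold changes of 0.32, 0.32 and 0.39 (SE 0.39, 0.53 and 0.36), and without YZ7 the first of these was -0.17 and the second -0.49.

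Nor was any member called between MaP R245W/- and MaP -/- tumors. Of 41 tested, 0 were called by edgeR, where 0% of the 21452 genes were called by either rule, and 3 members against 11.8% of all genes (5.32% higher and 6.46% lower) were at an unadjusted p below 0.05. DESeq2 called 0 of 43, with 5 at an unadjusted p below 0.05. The 3 members were gamma A genes, all lower. Pcdhga7 was 6.63, 2.09, 3.69, 3.0 and 2.52 CPM in JM1233, JM1564, RM0014, JM1126 and JM1133, and lowest, median and highest at 3.48, 5.63 and 25.03 CPM in MaP -/- tumors (log2 fold change -1.34, SE 0.55, edgeR FDR 0.387). Of the MaP R245W/- tumors only JM1233 lay above the MaP -/- median. Pcdhga5 and Pcdhga3 had log2 fold changes of -1.39 and -1.46 (SE 0.60 and 0.64, edgeR FDR 0.404 and 0.406). The clusters pointed opposite ways: 18 of 20 beta members were above 0 (median 0.15) and 20 of 21 gamma members below it (median -0.82), where 51.8% of all genes were above 0. Without JM779-T1 it was 12 of 20 and 15 of 21 (medians 0.06 and -0.27) and no member had an unadjusted p below 0.05. Without JM1233, by contrast, 21 of 21 gamma members were below 0 (median -1.12) and 10 had an unadjusted p below 0.05. Without YZ7, JM1233 and JM779-T1 it was 20 of 21 (median -0.66) and 4, and with the mean level of the fibroblast and mesenchymal markers as a covariate 21 of 21 (median -0.87) and 8. The number of members at that p was 0 to 10 when leaving out 1 tumor, and none was called in any of these fits.

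**Figure D5:**
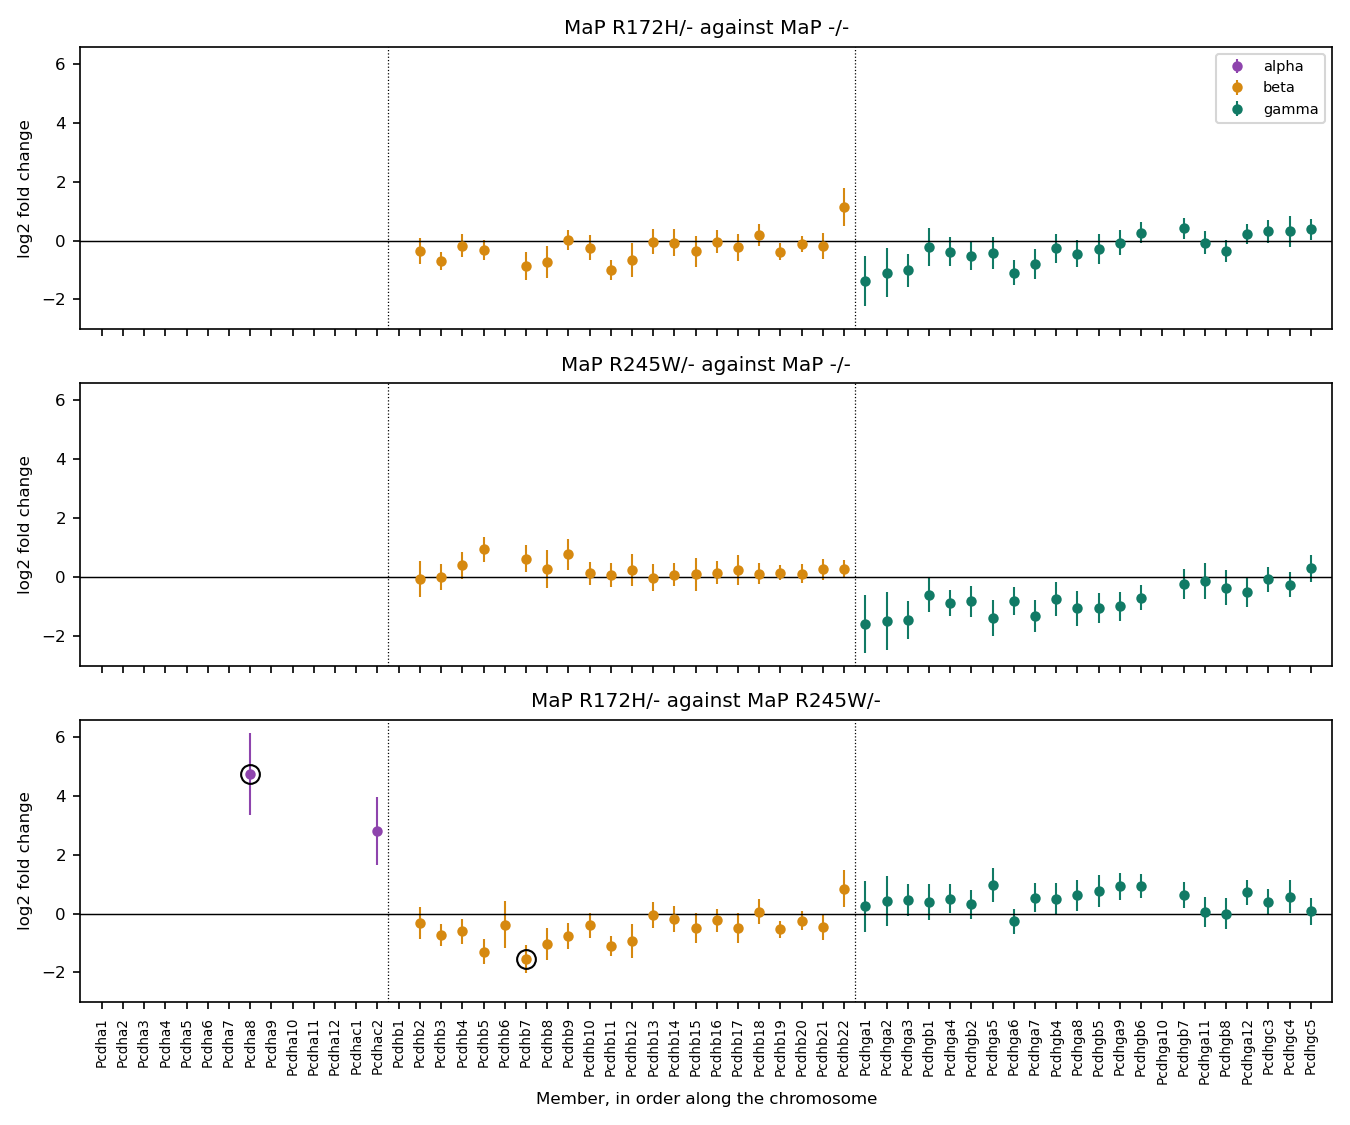
Log2 fold changes of the tested members in the 3 comparisons (edgeR), in order along the chromosome; bars are 1 standard error, members without a point had too few counts, and circles mark an FDR below 0.05. Circles appear only for Pcdha8 and Pcdhb7, in the comparison of the mutants.

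Between the mutants 1 of 44 tested members (2 alpha, 21 beta, 21 gamma) was called, where 2.34% of all genes were called (0.578% higher and 1.76% lower). This was Pcdha8, higher in MaP R172H/- tumors. It was lowest, median and highest at 0.0935, 0.238 and 9.59 CPM in MaP R172H/- tumors and 0.0884, 0, 0.0571, 0.0957 and 0.0383 CPM in JM1233, JM1564, RM0014, JM1126 and JM1133, all of the latter at 0 to 3 counts. The groups overlapped. The call, and much of the fitted log2 fold change of 4.74 (SE 1.40, edgeR FDR 0.0405), rested on YZ7. Without that tumor alone Pcdha8 had too few counts for the test and 0 members were called. Without YZ7, JM1233 and JM779-T1 its log2 fold change was 2.22 (edgeR FDR 0.0700), in the same direction but not called. The adjusted p of Pcdha8 was between 0.0341 and 0.130 over the fits that gave one, and the count of called members was 0 in 10 of the 18 fits that left out a tumor. DESeq2 replaced the count of Pcdha8 in YZ7 as an outlier and, with that value imputed, gave a log2 fold change of 2.02 (adjusted p 0.0899), while it called Pcdha12, where no count was replaced (3.54, adjusted p 0.0248). That call kept the YZ7 value: Pcdha12 had 52 counts in YZ7, 1 to 7 in the other MaP R172H/- tumors and 0 to 2 in MaP R245W/- tumors. Pcdhac2, the other alpha member tested, differed by 2.81 (SE 1.16, edgeR FDR 0.133).

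At an FDR below 0.05 alone, with 9.40% of all genes (2.91% higher and 6.49% lower), Pcdhb7 was the second member, lower in MaP R172H/- tumors. It was lowest, median and highest at 0.421, 1.15 and 2.67 CPM in MaP R172H/- tumors and 2.62, 3.46, 2.49, 3.70 and 6.01 CPM in the MaP R245W/- tumors in the order above (log2 fold change -1.54, SE 0.47, edgeR FDR 0.0464). Only YZ10, at 2.67 CPM, overlapped the MaP R245W/- tumors. Pcdhb11 had a log2 fold change of -1.10 (SE 0.35, edgeR FDR 0.0566). DESeq2 passed Pcdhb7, Pcdhb11 and Pcdhb5 at this threshold, all lower in MaP R172H/- tumors (adjusted p 0.0136, 0.0219 and 0.0255). Log2 fold changes were above 0 for 2 of 21 beta members (median -0.49) and 19 of 21 gamma members (median 0.49), beside 50.2% of all genes, and for 13 of 21 gamma members (median 0.27) without YZ7. Without JM1233 it was 21 of 21 gamma members (median 0.74), 5 of them at an unadjusted edgeR p below 0.05. Without YZ7, JM1233 and JM779-T1 it was 19 of 21 (median 0.54), again with 5. With the mean level of the fibroblast and mesenchymal markers as a covariate 21 of 21 gamma members were above 0 (median 1.06), 10 of them at an unadjusted p below 0.05, and 1 member was called. The comparisons with MaP -/- tumors share those tumors and are not independent of each other.

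Genes known to act on the clusters were compared in the same fits. Among 22 regulators (CTCF, cohesin and its loaders, DNA methyltransferases, Smchd1, Setdb1 and their partners), 9 were above 0 in MaP R172H/- against MaP -/- tumors (median -0.07) and 2 passed an FDR below 0.05, both higher: Wiz, a zinc finger protein that binds with CTCF and cohesin, by 0.76 (SE 0.17, edgeR FDR 0.0128), and Zfp143, a promoter-binding loop factor, by 0.47 (SE 0.12, edgeR FDR 0.0312). Of all genes 8.40% passed in that comparison (3.67% higher and 4.73% lower). None of the 22 passed in MaP R245W/- against MaP -/- tumors, where 0% of all genes did and Hdac3 and Smc3 had the smallest p. Between the mutants Wiz was higher (0.81, SE 0.19, edgeR FDR 0.0125) and Stag2, a cohesin subunit, lower (-0.55, SE 0.15, edgeR FDR 0.0239) in MaP R172H/- tumors. Between the mutants 9.40% of all genes passed (2.91% higher and 6.49% lower). None of the regulators that passed reached an absolute log2 fold change of 2. Setdb1, a histone methyltransferase that silences parts of the clusters, was 326 CPM in JM779-T1 and 70.4 to 138 CPM elsewhere.

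Of 18 downstream partners, such as the kinases Ptk2 and Ptk2b, the WAVE complex and neuroligins, 17 were tested and none passed in any comparison, with Nlgn2 nearest (0.73, SE 0.25, edgeR FDR 0.0878, against MaP -/- tumors, and 1.07, SE 0.33, edgeR FDR 0.0523, between the mutants). Of 12 nonclustered protocadherins, which are not part of the clusters and lack their shared exons, 9 were tested against MaP -/- tumors. Pcdh19 was lower in MaP R172H/- tumors by 1.82 on the log2 scale (a fold change of -1.82, SE 0.52, edgeR FDR 0.0445), with its highest levels in JM1233 (254 CPM) and JM779-T1 (119 CPM). None passed in MaP R245W/- tumors, where Pcdh12 and Pcdh9 had the smallest p (0.48 and 1.76, edgeR FDR 0.538 and 0.562), or between the mutants, where it was Pcdh19 and Pcdh12 (-2.29 and -0.67, edgeR FDR 0.0739 and 0.151). Of 19 neighbors on the chromosome 18 were matched and tested. In MaP R172H/- tumors 16 of these were above 0 (median 0.42) and 4 passed, all higher: Rell2 by 1.58, Fchsd1 by 1.03, Slc35a4 by 0.65 and Zmat2 by 0.64 (edgeR FDR 0.0132, 0.0387, 0.0302 and 0.0153), beside 3.67% of all genes that passed as higher. YZ11 had the highest sum of these neighbors, 1736 CPM against 1283 CPM in JM1564, the next tumor, and its part in these differences was not tested. Against the same controls, 16 of 18 were above 0 in MaP R245W/- tumors (median 0.25) and none passed, with Ndufa2 and Hdac3 at the smallest p (0.59 and 0.67, edgeR FDR 0.360 and 0.380). Between the mutants Ndufa2 was lower (-0.89, SE 0.20, edgeR FDR 0.0105). Taf7, which lies between the beta and gamma clusters, was lowest in JM779-T1, at 7.30 CPM.

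Cell type markers moved between the genotypes as well. In MaP R172H/- against MaP -/- tumors all 11 epithelial markers and, of the Schwann and glial markers, Sox10, S100b, Mbp and Gfap were above 0 with none past an FDR below 0.05. Lower at that FDR were 2 of 12 fibroblast and mesenchymal markers (Lum and Pdgfra), 3 of 8 endothelial markers, 2 of 6 immune markers and 1 of 3 neuronal markers tested (Stmn2), and none of 5 adipocyte or 4 muscle markers passed. Of all genes 4.73% passed as lower. In MaP R245W/- against MaP -/- tumors no marker of any list passed, and 0% of all genes did. Between the mutants 4 of 4 tested muscle markers were lower in MaP R172H/- tumors, as were Lum, the macrophage marker Adgre1 and the neurofilament gene Nefl. In that comparison 6.49% of all genes passed as lower. With the mean level of the 12 fibroblast and mesenchymal markers as a covariate, 17 of 21 gamma members (median 0.37) and 11 of 20 beta members (median 0.10) were above 0 in MaP R172H/- against MaP -/- tumors, and 0 were called.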

How the data were processed

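RNA of 18 mammary tumors was sequenced from stranded total RNA libraries after removal of ribosomal RNA. Per the submitters' processing notes and the study's methods, the authors checked reads with FastQC 0.11.9, aligned them with STAR 2.7.10b to GRCm39 (mm39) and counted genes with RSEM 1.3.3 (GENCODE M34). What was deposited are counts per gene, in whole numbers and not normalized. RSEM divides reads that match several genes, which concerns the shared exons of the alpha and gamma clusters. Coordinates and exon lengths came from GENCODE M39 on the same build, with 56620 of 57126 genes matched by identifier (the other 506 held at most 0.0464% of a tumor's counts).

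Groups followed the genotype label. The mutants were tested separately against MaP -/- tumors, and against each other in a model of all 18 tumors, with edgeR 4.0.16 in R 4.3.3 (TMM, filterByExpr, quasi-likelihood test, Benjamini-Hochberg FDR over all genes tested). A call needed an FDR under 0.05 plus a log2 fold change beyond 2 in either direction. CPM used TMM library sizes, and figures log2 of CPM plus 0.5. Cluster sums and correlations were described without a test. A value of 0 counts allows up to 3 counts, and total counts of 23113578 to 37365062 set this limit. The fit was tested on simulated data. Alternatives were DESeq2 1.42.0, other normalizations, filters and thresholds, summed tumors of 1 mouse, a mesenchymal covariate, and leaving out tumors. Python 3.11.15 with pandas 2.3.3 and matplotlib 3.10.9 was used for summaries.

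Named were the C-type members and the 3 highest members per kb in the alpha, beta, gamma A and gamma B groups. So were members called or with the 3 smallest p in a comparison, and the member with the largest share of its cluster. From the context lists came genes that passed or had the smallest p. Cell type markers did not all follow this rule. Some that passed were only counted, and others, among them Epcam, Cdh1, Esrp1 and Vim, were named without passing. Members singled out for their level in 1 tumor or a DESeq2 result (Pcdha4, Pcdha12, Pcdhb5, Pcdhb6, Pcdhb9, Pcdhb14, Pcdhb21, Pcdhb22, Pcdhga1, Pcdhga2, Pcdhga12, Pcdhgb6 and Pcdhgb8), the genes inside the intervals, neuronal markers, Col1a1, Col1a2, Setdb1 and Taf7 were named after their values were seen. Some markers of the Schwann and glial list are not reported here. The members and lists were chosen with earlier results of these data known.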

Additional observations from a re-analysis of the deposited data

Results flagged for a closer look

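Within a genotype, the gap of the highest or lowest tumor to its nearest neighbor was compared with the range of the group for 54 sets of values, and 14 were marked. The rule marks about 5% by chance only where values are independent and normally distributed. CPM values, and sums that share members, do not meet this, so the count is a description. YZ7 stood apart among the 7 MaP R172H/- tumors in the alpha sum (72.5 CPM), the summed gamma C-type members (84.7 CPM, next 26.2), Pcdha8 (9.59 CPM), Pcdhac2 (4.18 CPM), Pcdhgc3 (52.1 CPM), Pcdhgc4 (19.5 CPM) and Pcdhgc5 (13.1 CPM). JM779-T1 stood apart among the 6 MaP -/- tumors in the gamma sum (388 CPM, next 186), the gamma A sum (199 CPM, next 79.3), Pcdhga5 (28.8 CPM), Pcdhga6 (22.5 CPM) and Pcdhga7 (25.03 CPM). These values are not independent, since the sums contain the single members. Pcdhac2 in JM833-T1 (1.11 CPM, MaP -/-) and Pcdhgc4 in JM1233 (8.34 CPM, MaP R245W/-) were the remaining 2. The direct contrast of the mutants was flagged for Pcdha8 (4.74) and Pcdhb7 (-1.54) on the log2 scale (edgeR FDR 0.0405 and 0.0464). These are the results given above and not a further test. In the main comparisons with MaP -/- tumors Pcdha8 was not tested. Without YZ7 alone, Pcdha8 had too few counts to be tested.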

How the results depend on the processing

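No paired analysis was possible because the labels give no replicate numbers shared between genotypes. The count of called members stayed at 0 under every alternative in both comparisons with MaP -/- tumors. Between the mutants it was 2 with a log2 threshold of 1 or none, and 0 with a mean CPM of at least 1, protein-coding genes alone, only the mutant groups, or without YZ7 and JM779-T1, without these and JM1233, or without YZ11, JM1233 and RM0014 (combinations chosen after seeing the data), and 0 to 1 when leaving out 1 tumor. C-type members changed sign. Against MaP -/- tumors, Pcdhgc4 in MaP R172H/- was -0.45 with DESeq2 and -0.23 without YZ7 and JM779-T1, with or without JM1233, and Pcdhgc5 in MaP R245W/- was -0.02 with the mesenchymal covariate, -0.13 without YZ7, JM1233 and JM779-T1 and -0.12 without YZ11, JM1233 and RM0014. Pcdhgc3 in MaP R245W/- was 0.10 without YZ7 and JM779-T1. Between the mutants Pcdhgc3, Pcdhgc4 and Pcdhgc5 were -0.089, -0.22 and -0.23 without YZ7 and JM779-T1, and Pcdhgc4 was -0.22 with DESeq2. In both of these DESeq2 values of Pcdhgc4 (-0.45 and -0.22) its count in YZ7 had been replaced as an outlier. Leaving out 1 tumor, the ranges were -0.17 to 0.53 for Pcdhgc3 and -0.49 to 0.57 for Pcdhgc4 in MaP R172H/- against MaP -/-, -0.39 to 0.11 for Pcdhgc3 and -0.22 to 0.52 for Pcdhgc5 in MaP R245W/- against MaP -/-, and -0.11 to 0.69, -0.25 to 1.11 and -0.26 to 0.59 for Pcdhgc3, Pcdhgc4 and Pcdhgc5 between the mutants. With 1 CPM as the minimum, the median numbers of detected beta members were 13, 15 and 15 in MaP R172H/-, MaP R245W/- and MaP -/- tumors and of gamma members 20, 20 and 20.5, and at the shallowest depth 19 beta members remained in MaP R245W/- tumors. Medians of the cluster sums moved by less than 1 SD under every scaling. That SD was 26.9 CPM beside a median of 1.02 CPM for alpha in MaP R172H/- tumors. For gamma in MaP -/- tumors it was 118 CPM beside a median of 119 CPM. For these sums, each with an outlying tumor, the comparison with 1 SD says little. The causes of the changes with processing were not tested. Depth limits the alpha cluster, where 8 of 14 members reached 10 counts in exactly 1 tumor.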
